A study of Mus musculus with 21 samples.

Results

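Tight junction genes were measured in the colon of germ-free (GF) mice before and during chemically induced colitis. The genes are 8 claudins (Cldn1, Cldn2, Cldn3, Cldn4, Cldn7, Cldn8, Cldn15 and Cldn23), the scaffold gene Tjp1 and the occludin gene Ocln. They were chosen by name, and all array probes for them were taken, 13 probes at day 0 and 14 at day 7, with the brightest probe standing for each gene. These 10 genes are a small part of the 24813 named genes on the day 0 arrays and the 22372 on the day 7 arrays. The 21 single-color arrays each held total colon RNA from male GF C57BL/6J mice, labelled Card9-/- or WT. Card9-/- lacks Card9, an adaptor that carries signals from innate receptors for microbes. At day 0, before dextran sulfate sodium (DSS), there were 7 arrays labelled GF Card9-/- and 6 labelled GF WT. At day 7 of 2% DSS in drinking water, there were 4 and 4. The labels number a pair of the former 2 and 2.1 and do not say whether they share an animal. The SD of their log2 difference over the tested probes was 0.852, against a median of 0.907 for the other day 7 pairs within a label, and they were counted as 2 samples. DSS injures the colon epithelium and so opens the barrier that these genes build. The age of these mice is not given in the sources used here, and the RNA came from whole colon tissue, in which all cell types are mixed.

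Tight junctions seal the gap between neighboring epithelial cells near their apical side. Claudins are membrane proteins that span this gap and set which ions and how much water pass. Some form pores, such as the cation and water channel Cldn2 and the sodium channel Cldn15, and others tighten the seal, such as Cldn1, Cldn3, Cldn4 and Cldn8. Cldn7 and Cldn23 are less settled in class. Occludin is another membrane protein of the junction, and Tjp1 encodes ZO-1, the scaffold that ties these proteins to actin. In the inflamed gut, a rise of Cldn2 and a loss of sealing claudins are the textbook pattern.

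The labels went against the Card9 signal. At day 0 the brightest Card9 probe averaged 8.90 ± 0.20 on the log2 scale (SD, n = 7) under the GF Card9-/- label, against 2.32 ± 0.01 (SD, n = 6) under the GF WT label. At day 7 it lay at 7.995, 8.57, 7.93 and 8.02 in the arrays labelled GF Card9-/- and at 7.85, 2.39, 2.41 and 2.38 in GF WT replicates 1, 4, 5 and 6. The gene was thus brighter in the arrays that carry the knockout label, and GF WT replicate 1 at day 7 differed from the other arrays of its label. Whether these probes lie inside the deleted part of the gene is not given in the sources used here. Every direction below is that of the deposited labels, GF Card9-/- minus GF WT, and would turn if the labels were exchanged. The sample labels number separate samples and do not say that each came from a separate animal, so p-values measure the spread between these arrays. The 2 days lie on different array designs, so signals were not compared between days. The share of spots well above background ranged from 54.5% to 64.9% at day 0 and from 42.2% to 57.1% at day 7. All 8 epithelium markers (Epcam, Cdh1 and others) were well above background on all arrays of both days. These markers are not particular to the colon. Markers of the pancreas or of other gut regions stood high or low in single arrays. Of the 10 pancreas markers, the mean log2 deviation was 9.95 in GF Card9-/- replicate 7 at day 0, and 3.84 and 7.73 in GF Card9-/- replicates 2.1 and 6 at day 7. At day 7 it was -2.02 and -0.58 in replicates 2 and 4 of that label, and -2.40 to -2.07 in the arrays labelled GF WT. In GF WT replicate 6 at day 0 the small intestine markers stood at 1.84 and the distal gut position genes at -1.74.

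Of the 10 genes, 0 passed an adjusted p of 0.05 between the labels at day 0 (limma with Benjamini-Hochberg adjustment over 47410 probes), against 0.0253% of all probes, and 1 had an unadjusted p under that value, against 5.84% of all probes (3.89% higher and 1.95% lower under the GF Card9-/- label). That gene was Cldn8, a sealing claudin of the distal colon, and it was higher. At day 7, 0 of the 9 genes tested passed (44643 probes, of which 0% passed), and 0 had an unadjusted p under 0.05, against 3.38% of all probes (2.02% higher and 1.36% lower). The median difference over the genes was 0.06 on the log2 scale at day 0, beside 0.02 over all probes, and 0.17 at day 7, beside 0.00. At day 0, 8 of the 10 were higher in the arrays labelled GF Card9-/-, against 57% of all probes, and at day 7 it was 6 of 9, against 50.4%. In 0 of the genes did the labels not overlap, at either day, against 0.458% of the probes at day 0 and 2.13% at day 7. In bulk tissue, fewer epithelial cells and less RNA per cell cannot be told apart.

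**Figure D1:**
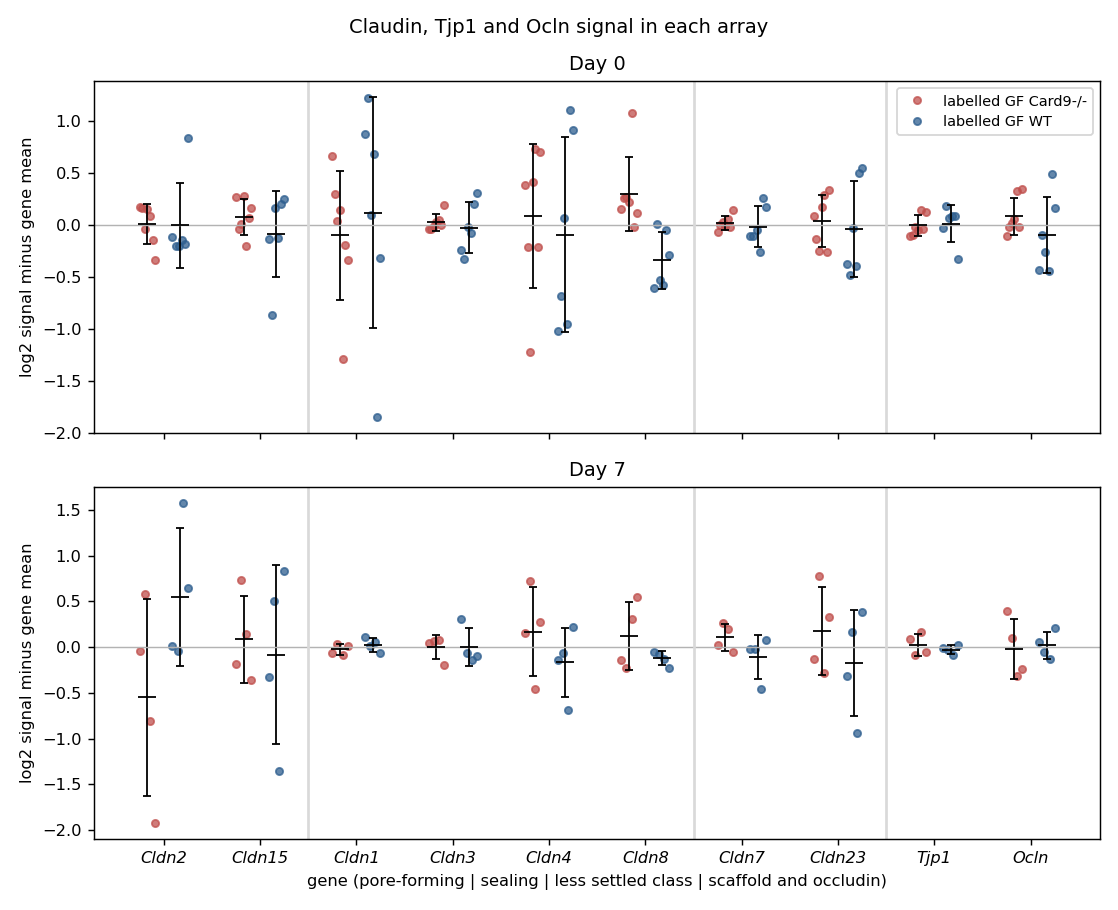
Log2 signal of each gene's brightest probe minus that gene's mean over the arrays of the day (vertical axis), for day 0 (top) and day 7 (bottom); each point is an array, and the black bars give the mean and SD of each label. Cldn8 at day 0 is the gene whose labels lie farthest apart for their spread, and Cldn2 at day 7 spans more than any other gene at that day.

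Among the pore-forming claudins, Cldn2 showed no difference past the threshold at day 0. Its log2 signal ran from 11.23 through a median of 11.65 to 11.74 in the arrays labelled GF Card9-/- and from 11.36 through 11.40 to 12.40 in those labelled GF WT. The highest value was that of GF WT replicate 6, the array where the small intestine markers stood highest. The other 5 arrays labelled GF WT lay below the median of those labelled GF Card9-/-. The difference was 0.01 (SE 0.17, 95% interval -0.35 to 0.38, adjusted p = 0.995, limma). Cldn2 is on the X chromosome, and its probe lies at chrX:136345244-136345303 on the plus strand (mm9).

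At day 7 Cldn2 varied most. The log2 signal was 8.55, 9.17, 7.79 and 6.67 in GF Card9-/- replicates 2, 2.1, 4 and 6, and 8.61, 8.55, 10.17 and 9.24 in GF WT replicates 1, 4, 5 and 6. Of the 4 arrays labelled GF Card9-/-, 2 lay below every array labelled GF WT, and the labels overlapped. The difference was -1.10 (SE 0.60, 95% interval -2.49 to 0.30), and it missed the threshold (unadjusted p = 0.106, adjusted p = 0.913, limma). A fainter Cldn2 probe, well above background on 2 of 4 and 3 of 4 arrays, gave -1.41 (SE 0.78). The lowest Cldn2 value was in GF Card9-/- replicate 6, which also had the highest pancreas marker score, 7.73. That list (10 markers, 2 of them well above background on all 8 arrays and 0 on none) had a summed log2 signal of 13.09 to 19.77 in the arrays labelled GF Card9-/- and 12.62 to 14.52 in those labelled GF WT. The highest Cldn2 value was in GF WT replicate 5, where the distal gut position genes stood at 2.45 and the surface colonocyte markers at -1.34. The distal genes (6, with 2 well above background on all arrays and 0 on none) had a summed log2 signal of 14.60 to 15.91 in GF Card9-/- and 14.99 to 16.05 in GF WT, and the 7 colonocyte markers, all well above background on all arrays, 18.70 to 19.32 and 17.64 to 19.09. Of the 10 pancreas markers, 9 had a higher mean under the GF Card9-/- label (median difference 4.82). Of the 6 distal genes, 5 had a lower one (median -0.76). Other lists also leaned to one label. All 7 T cell markers (5 well above background on all arrays, 0 on none) had a higher mean under the GF Card9-/- label, with a summed log2 signal of 11.49 to 12.29 against 11.38 to 11.47. All 7 neutrophil markers (2 well above background on all arrays, 3 on none) did too, with a summed log2 signal of 10.16 to 12.19 against 10.60 to 11.67 and scores that did not overlap between the labels. GF Card9-/- replicate 6 had the highest score of both lists, 1.17 and 0.64, and the lowest of the crypt base markers, -0.25 (8 markers, 5 of them lower, median difference -0.20, 5 well above background on all arrays and 1 on none, summed log2 signal 11.87 to 12.37 against 11.94 to 12.44). All 7 colonocyte markers had a higher mean under the GF Card9-/- label (median 0.28). The smooth muscle markers were lower in 8 of 8 (median -0.45, all 8 well above background on all arrays, summed log2 signal 16.82 to 19.08 against 17.30 to 19.29). The adipocyte markers were higher in 6 of 8 (median 1.23, 7 well above background on all arrays and 1 on none, summed log2 signal 14.51 to 16.69 against 13.89 to 16.08). The part of these lists in the Cldn2 difference was not tested. Without GF Card9-/- replicates 2.1 and 6 the difference was -0.97, and without replicate 6 alone -0.64. Leaving out GF WT replicate 1 gave -1.27, and leaving out replicate 5 of that label gave -0.76. With slide as a fixed block, which leaves the 2 slides that hold both labels, it was -0.04, as those slides gave -0.69 and 0.62.

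Cldn15, the other pore-forming claudin, had a log2 signal from 13.53 through 13.80 to 14.02 in the arrays labelled GF Card9-/- and from 12.87 through 13.75 to 13.98 in those labelled GF WT at day 0. The low value was GF WT replicate 2, and the rest overlapped. The difference was 0.16 (SE 0.17, 95% interval -0.20 to 0.52), and 0.00853 without that array. At day 7 the values were 11.68, 12.59, 12.002 and 11.50 against 11.53, 12.37, 10.50 and 12.69, with GF WT replicate 5 lowest. The difference of 0.17 (SE 0.50) was smaller than the spread within either label (SD 0.48 and 0.98).

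Cldn8 was the sealing claudin with the clearest gap at day 0. Its log2 signal ran from 10.72 through a median of 10.96 to 11.81 in the arrays labelled GF Card9-/- and from 10.13 through 10.33 to 10.75 in those labelled GF WT. Among the former, 6 of 7 lay above every array labelled GF WT, and the groups overlapped in 1 array, GF Card9-/- replicate 6. The difference was 0.64, or 1.55-fold (SE 0.17, 95% interval 0.26 to 1.01), and it did not pass the adjustment over all probes (unadjusted p = 0.00297, adjusted p = 0.396, limma). Within the 4 slides it was 0.72, 0.28, 0.74 and 0.82, and within the 2 scan sessions 0.43 and 0.83, so the sign was the same in each. The highest value belonged to GF Card9-/- replicate 5, the array with the lowest smooth muscle score (-2.10) and adipocyte score (-4.69), and without it the difference was 0.50. All 8 smooth muscle markers were well above background on all day 0 arrays and 8 of 8 had a lower mean in GF Card9-/- (0 past the threshold, median difference -0.45), with a summed log2 signal of 16.42 to 19.74 in GF Card9-/- and 17.11 to 19.58 in GF WT, and their part in the result was not tested. The 6 mesothelium markers were all higher (1 with an unadjusted p under 0.05, median 0.79, 3 well above background on all arrays, 0 on none), with a summed log2 signal of 12.38 to 13.06 against 12.27 to 12.96. The 8 endothelium markers were all lower (median -0.38, 7 well above background on all arrays, 0 on none, summed log2 signal 10.86 to 12.44 against 10.96 to 13.02), and so were the 7 macrophage markers (median -0.52, all well above background on all arrays, summed log2 signal 11.73 to 13.57 against 11.46 to 14.11). Of the distal gut position genes, 0 of 6 passed, 2 had an unadjusted p under 0.05 (Hoxd10 and Hoxd11, both lower), 4 were lower under the GF Card9-/- label (median difference -0.52), and the scores of the labels overlapped. Hoxa13 (0.45, SE 0.28) and Hoxb13 (0.69, SE 0.96), the 2 that were well above background on all day 0 arrays, were not among the 4. Of the 6, 1 was well above background on no array, and the list had a summed log2 signal of 14.66 to 16.29 in GF Card9-/- and 10.35 to 16.50 in GF WT. The 10 pancreas markers were all higher (median 1.51), with GF Card9-/- replicate 7 at a score of 9.95. The 7 T cell markers (median 0.21) and the 5 neutrophil markers tested (median 0.32) were also all higher. The 7 B and plasma cell markers were all lower (median -0.18), and 7 of the 8 epithelium markers were higher (median 0.07). The part of these lists in the Cldn8 difference was not tested.

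At day 7 Cldn8 was at 11.92, 11.83, 12.37 and 12.61 in the arrays labelled GF Card9-/- and at 12.002, 11.98, 11.92 and 11.83 in those labelled GF WT. GF Card9-/- replicates 4 and 6 lay above all arrays labelled GF WT, replicate 2 fell among them, and replicate 2.1 lay just below the lowest. The difference was 0.25 (SE 0.19, 95% interval -0.20 to 0.69, adjusted p = 0.913, limma). The probe, at chr16:88561135-88561194 on the minus strand (mm9), is the same on both designs.

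**Figure D2:**
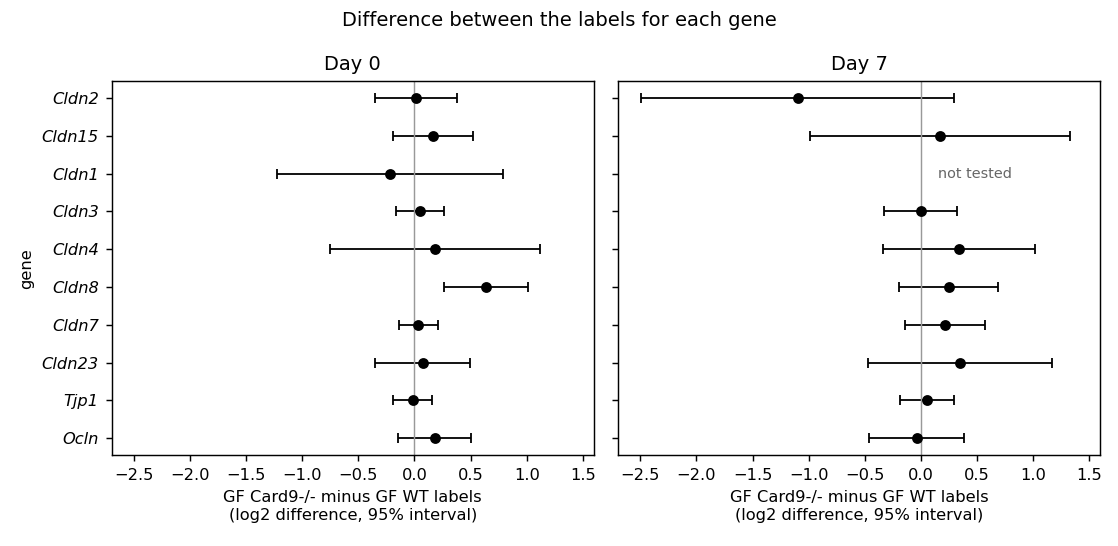
Difference in log2 signal between the arrays labelled GF Card9-/- and GF WT for each gene (horizontal axis; points, limma estimates; bars, 95% intervals that are not adjusted for the number of probes), at day 0 (left) and day 7 (right). The interval of Cldn8 at day 0, 0.26 to 1.01, is the one that leaves out 0, and Cldn1 at day 7 has no test.

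The remaining sealing claudins showed no difference that passed. Cldn4 spread widely at day 0, from 6.81 through 8.42 to 8.77 in the arrays labelled GF Card9-/- and from 7.02 through 7.73 to 9.13 in those labelled GF WT. Both labels held low and high arrays, and the difference was 0.18 (SE 0.43, 95% interval -0.75 to 1.11). At day 7 Cldn4 was at 8.06, 8.64, 7.45 and 8.18 against 7.78, 7.85, 7.23 and 8.14, a difference of 0.34 (SE 0.29), and a second probe gave 0.18 (SE 0.34). Cldn3, abundant in the colon epithelium, stayed within a narrow range. It ran from 15.78 through 15.82 to 16.02 against 15.49 through 15.77 to 16.13 at day 0 (difference 0.05, SE 0.10). At day 7 it was 15.51, 15.53, 15.55 and 15.27 against 15.78, 15.40, 15.33 and 15.37 (difference -0.00, SE 0.14, 95% interval -0.32 to 0.32).

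Cldn1, a sealing claudin of stratified epithelia, was dim. At day 0 its probe was well above background on 6 of 7 arrays labelled GF Card9-/- and 5 of 6 labelled GF WT, and ran from 4.84 through 6.18 to 6.80 and from 4.29 through 6.52 to 7.36. The lowest values were GF WT replicate 5 and GF Card9-/- replicate 5. The difference was -0.22 (SE 0.46, 95% interval -1.23 to 0.79). At day 7 another Cldn1 probe was well above background on 0 of 8 arrays. It also failed the detection rule for testing, so the gene had no test there.

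Of the claudins of less settled class, Cldn7 was at 16.87 to 17.08 (median 16.94) against 16.68 to 17.21 (median 16.87) at day 0, a difference of 0.03 (SE 0.08). At day 7 its brightest probe had 16.39, 16.63, 16.57 and 16.31 against 16.34, 16.35, 15.91 and 16.44, a difference of 0.21 (SE 0.15), while its other probe gave -0.28 (SE 0.22), the opposite sign. Cldn23 ran from 11.17 through 11.52 to 11.76 against 10.95 through 11.22 to 11.98 at day 0 (difference 0.07, SE 0.19). At day 7 it was at 8.06, 8.98, 7.91 and 8.53 against 7.88, 8.36, 7.26 and 8.57 (difference 0.35, SE 0.35). The labels overlapped for both genes at both days, and neither gene passed.

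Tjp1 and Ocln had no difference past the threshold at either day. Tjp1 lay between 11.73 and 11.97 (median 11.79) in the arrays labelled GF Card9-/- and between 11.51 and 12.01 (median 11.90) in those labelled GF WT at day 0, with GF WT replicate 6 lowest. The difference was -0.02 (SE 0.08, 95% interval -0.19 to 0.16), and a second probe gave 0.08 (SE 0.08). At day 7 Tjp1 was at 11.43, 11.26, 11.52 and 11.29 against 11.34, 11.31, 11.26 and 11.37 (difference 0.05, SE 0.10, 95% interval -0.18 to 0.29). Ocln ran from 9.91 through 10.03 to 10.36 against 9.58 through 9.84 to 10.51 at day 0 (difference 0.18, SE 0.15, 95% interval -0.15 to 0.51). At day 7 it was at 10.90, 10.61, 10.19 and 10.26 against 10.56, 10.45, 10.38 and 10.71 (difference -0.04, SE 0.18), and a second probe gave 0.13 (SE 0.15).

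**Figure D3:**
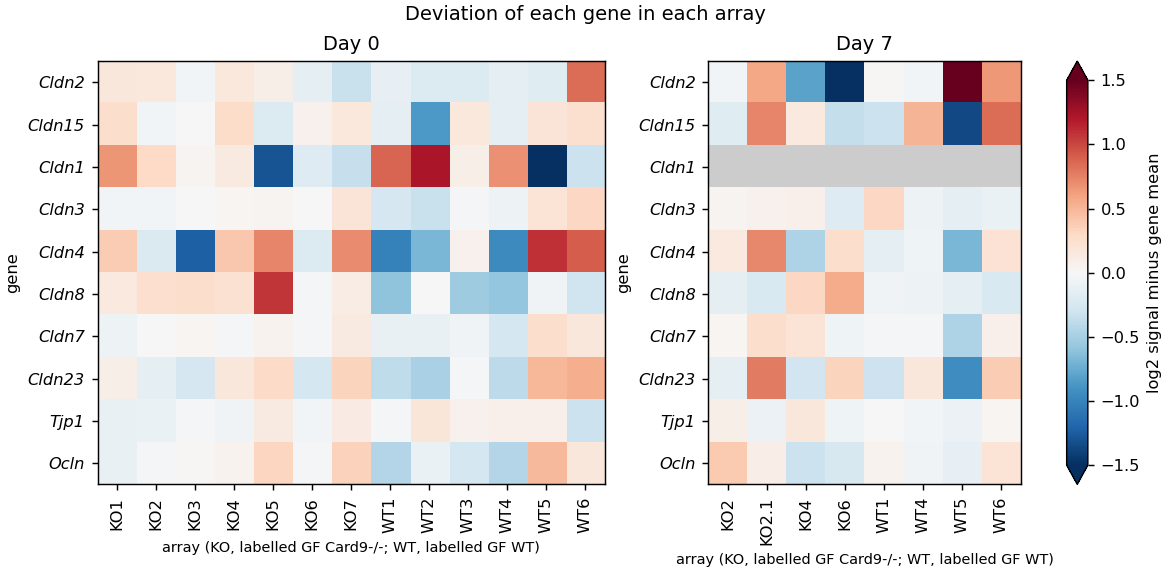
Log2 signal of each gene (rows) in each array (columns) less its average for the day, from blue (below) to red (above). The scale ends at -1.5 and 1.5. Cldn1 at day 7 is grey, as no array was well above background and the gene had no test. GF WT replicate 5 at day 7 is high for Cldn2 and low for Cldn15, Cldn4 and Cldn23, and the rows of Cldn4 and Cldn23 look alike at both days.

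To contrast the 2 classes, the mean of Cldn2 and Cldn15 minus the mean of Cldn1, Cldn3, Cldn4 and Cldn8 was taken in each array, each gene centred on its mean over the day. At day 0 this score averaged -0.03 ± 0.16 (SD, n = 7) under the GF Card9-/- label, against 0.04 ± 0.33 (SD, n = 6) under the GF WT label. The difference of -0.07 was smaller than either SD, and it was -0.20 without Cldn1 and -0.0383 with Cldn7 and Cldn23 counted as sealing. At day 7 the score was -0.11, 0.51, -0.29 and -1.30 in GF Card9-/- replicates 2, 2.1, 4 and 6 and -0.21, 0.28, 0.34 and 0.78 in GF WT replicates 1, 4, 5 and 6. The means were -0.30 ± 0.75 and 0.30 ± 0.41 (SD, n = 4 each), a difference of -0.60, smaller than the SD in GF Card9-/- and larger than that in GF WT. The score has no p, since it is a score over chosen genes. It was -0.66 without Cldn1, whose day 7 values are background, and -0.26 without GF Card9-/- replicate 6.

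**Figure D4:**
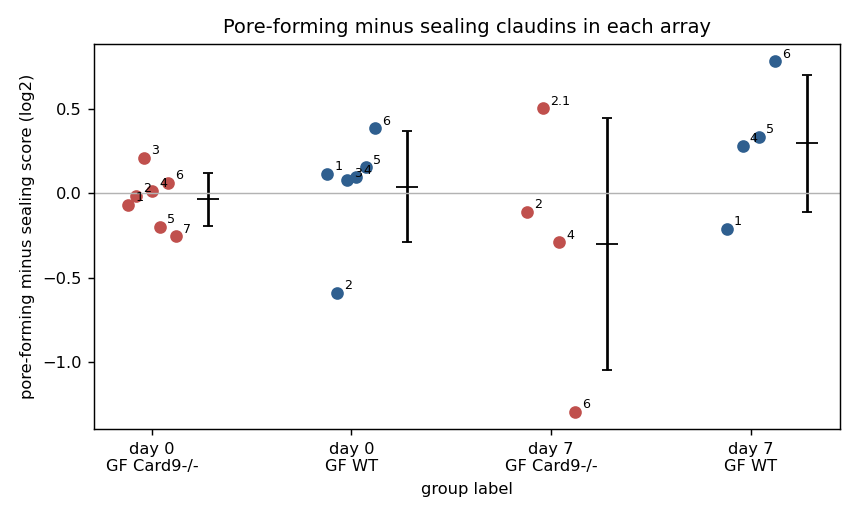
Mean of the pore-forming claudins minus mean of the sealing claudins (vertical axis, log2 scale, genes centred on their mean over the day) in each array, by day and label; numbers are replicates, and bars give the mean and SD. At day 7 the arrays run from -1.30 to 0.78 and the labels overlap, and at day 0 GF WT replicate 2, at -0.59, is the lowest array.

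Whether the difference between the labels changed from day 0 to day 7 was tested for the 7 genes with a probe on both designs that was detected at both days (the brightest such probe, which for Cldn4 is not its brightest at day 7), and 0 of the 7 passed (limma). Of 23633 probes, 0% passed an adjusted p of 0.05 and 7.14% had an unadjusted p under 0.05. Cldn2 was the 1 of the 7 genes with an unadjusted p below it: its difference was 1.11 lower at day 7 than at day 0 (-1.11, 95% interval -2.21 to -0.01, unadjusted p = 0.0481, adjusted p = 0.691, limma). Leaving out GF Card9-/- replicate 6 of day 7 gave -0.66. For Cldn8 this value was -0.39 (95% interval -0.95 to 0.17, adjusted p = 0.802, limma). The joint fit gives each probe 1 variance for both days. For Cldn2 the SD was 0.19 (GF Card9-/-) and 0.41 (GF WT) at day 0, and 1.08 and 0.75 at day 7. Its interval and p therefore rest on a spread smaller than that seen at day 7.

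Some of the genes rose and fell together from array to array, whatever the label. Each array's deviation from its label's mean was compared between all 45 pairs of genes over the 13 day 0 arrays, with permutation p-values (two-sided, 100000 permutations) adjusted over the pairs. The arrays share their total RNA and the makeup of the tissue piece. Of the 45 pairs, 18 passed by Pearson's r, 17 by Spearman's rho and 16 by both. Pairs of other genes were not examined, so whether these counts are particular to junction genes was not tested. Cldn4 and Cldn23 had the largest r of the 45 pairs (r = 0.935, adjusted permutation p = 0.00045; rho = 0.901, adjusted permutation p = 0.00112; n = 13). Their r was 0.976 without the 2 arrays farthest from the Cldn4 median, and 0.929 and 0.962 within the 2 scan sessions of 6 and 7 arrays. At day 7, where both genes have other probes, they again moved together (r = 0.917, exact permutation p = 0.000645, adjusted over 13 pairs 0.00838; rho = 0.976, exact permutation p = 0.000397, adjusted 0.00516; n = 8), and r was 0.882 without the 2 farthest arrays. After each array's epithelium score was subtracted, r was 0.927 at day 0 and 0.716 at day 7. Of the 13 pairs past the threshold by r at day 0 that could be set out at day 7, Cldn4 and Cldn23 was the 1 pair that passed there. Pairs that did not pass by r at day 0 were not tested at day 7, and among them Cldn7 and Cldn15 had r = 0.919 (rho = 0.976) and Cldn2 and Cldn8 r = -0.841 (rho = -0.833) over the 8 arrays. Slides hold at most 4 arrays, too few for a value within a slide.

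**Figure D5:**
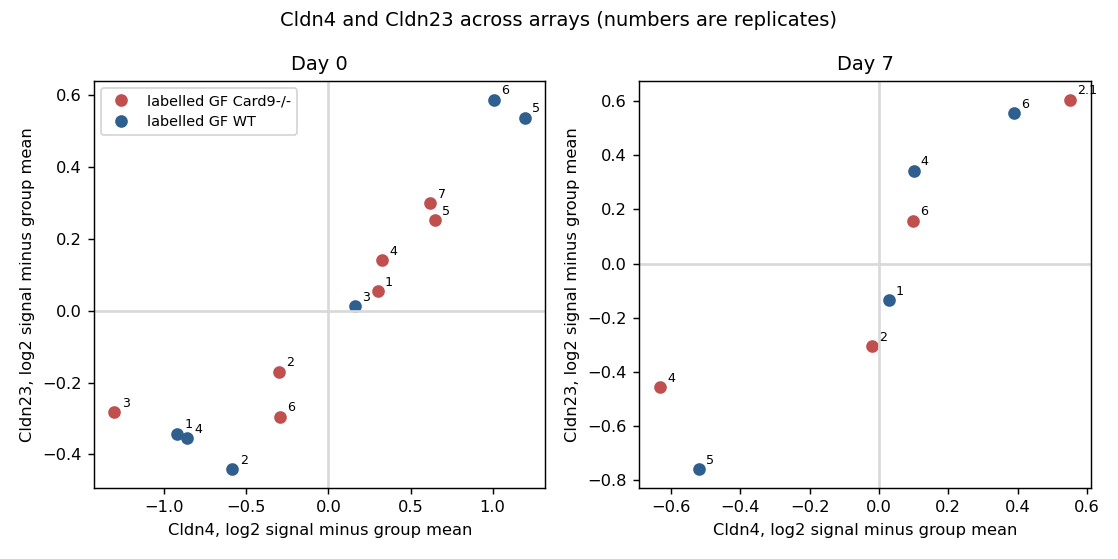
Cldn23 against Cldn4 in each array (both as log2 signal minus the mean of the array's label), at day 0 (left, r = 0.935, n = 13) and day 7 (right, r = 0.917, n = 8); numbers are replicates. Arrays high in 1 gene are high in the other, at both days and in both labels.

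Cldn7 and Ocln also moved together at day 0 (r = 0.916, adjusted permutation p = 0.00045; rho = 0.846, adjusted permutation p = 0.00414; n = 13). Their r was 0.836 without the 2 farthest arrays, 0.931 and 0.908 within the scan sessions, and 0.709 after the epithelium score was subtracted. At day 7 it was 0.247 (rho = 0.310, exact permutation p = 0.551 for r and 0.462 for rho, n = 8). Cldn3 and Cldn23 had r = 0.888 at day 0 (adjusted permutation p = 0.00045; rho = 0.852, adjusted permutation p = 0.00427; n = 13), 0.827 without the 2 farthest arrays and 0.946 and 0.7996 within the sessions. With the epithelium score subtracted their r was 0.274, and at day 7 it was -0.0999 (rho = -0.0238, exact permutation p = 0.819 for r and 0.977 for rho, n = 8). The largest rho in size was that of Cldn1 and Cldn3 (rho = -0.940, adjusted permutation p = 0.00045; r = -0.739, adjusted permutation p = 0.0139; n = 13). Their r was -0.892 without the 2 farthest arrays, -0.897 and -0.440 within the sessions and -0.187 after the epithelium score was subtracted. Cldn1 moved against Ocln at day 0 (r = -0.835, adjusted permutation p = 0.0036; rho = -0.703, adjusted permutation p = 0.0301; n = 13), with r = -0.610 without the 2 farthest arrays, -0.872 and -0.840 within the sessions and -0.503 after the epithelium score was subtracted. Cldn2 and Tjp1 also ran opposite (r = -0.853, adjusted permutation p = 0.00765; rho = -0.747, adjusted permutation p = 0.0196; n = 13). Their r was -0.534 without the 2 farthest arrays, -0.857 and -0.848 within the sessions and -0.298 after the epithelium score was subtracted. The day 7 value was -0.152 (rho = -0.0952, exact permutation p = 0.719 for r and 0.840 for rho, n = 8). Cldn3 and Cldn4 had r = 0.758 at day 0 (adjusted permutation p = 0.00855; rho = 0.797, adjusted permutation p = 0.0102; n = 13), 0.748 without the 2 farthest arrays, 0.780 and 0.681 within the sessions and 0.153 after subtraction. At day 7 their r was 0.00349 (rho = -0.143, exact permutation p = 0.994 for r and 0.752 for rho, n = 8). Cldn8 passed with none of the other 9 genes by r and with Ocln alone by rho (r = 0.603, adjusted permutation p = 0.0737; rho = 0.687, adjusted permutation p = 0.0331; n = 13). That r was 0.791 without the 2 farthest arrays and 0.532 and 0.738 within the sessions, and it was -0.789 at day 7 (rho = -0.810, n = 8), where the pair was not tested.

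The RefSeq promoter table (GRCm38.p6) holds 8 of the 10 genes. Cldn8 and Cldn23 were not matched. The 250 bases before the start are shown for Cldn4 and Cldn3, sealing claudins 38.8 kb apart on chromosome 5, and for the pore-forming Cldn2. Capitals mark matches on either strand to the TATA box (TATAAA), the GC box (GGGCGG), a core of the intestinal CDX factors (TTTATG), the E-box of Snail and ZEB (CACCTG) and the Grainyhead site (AACCGGTT). Among all 32851 promoters in the table, windows of the same length hold these in 12.4%, 32.7%, 10.8%, 17.2% and 0.116%.
Cldn4, chr5:134946935-134947184, minus strand: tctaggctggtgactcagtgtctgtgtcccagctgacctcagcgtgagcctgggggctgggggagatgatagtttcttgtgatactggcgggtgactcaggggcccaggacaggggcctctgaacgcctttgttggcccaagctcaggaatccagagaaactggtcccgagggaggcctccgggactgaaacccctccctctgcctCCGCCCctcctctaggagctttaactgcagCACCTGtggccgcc
Cldn3, chr5:134985964-134986213, plus strand: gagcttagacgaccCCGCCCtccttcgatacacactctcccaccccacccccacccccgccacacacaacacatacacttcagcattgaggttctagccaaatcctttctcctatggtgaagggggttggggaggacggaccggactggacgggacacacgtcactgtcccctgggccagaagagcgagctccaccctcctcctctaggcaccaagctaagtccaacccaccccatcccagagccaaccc
Cldn2, chrX:139800558-139800807, plus strand: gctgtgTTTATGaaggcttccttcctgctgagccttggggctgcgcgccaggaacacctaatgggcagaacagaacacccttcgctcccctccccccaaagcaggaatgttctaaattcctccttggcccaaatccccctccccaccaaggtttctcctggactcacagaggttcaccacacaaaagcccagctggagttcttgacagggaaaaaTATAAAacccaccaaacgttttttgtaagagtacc
The windows of Cldn4 and Cldn3 hold 1 GC box each, and that of Cldn4 also 1 E-box. The Cldn2 window holds a TATA box and a CDX core and no GC box. These are letter matches in short windows.

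The rest of the junction was examined in 5 lists with 93 genes. At day 0, 0 of the 88 tested genes passed an adjusted p of 0.05 and 3 had an unadjusted p under it (limma), against 5.84% of all probes. The day 7 counts were 0 and 1 of 90, against 3.38% of all probes. The medians were 0.01 at day 0 and -0.00 at day 7, near those over all probes. Of other claudins, 13 were tested at day 0 (median 0.11, 8 higher and 5 lower) and 15 at day 7 (median 0.26, 9 higher and 6 lower). Of the 17 on the arrays, 7 were well above background on all day 0 arrays and 5 on none. At day 7 these counts were 3 and 7, so that median rests in part on genes near background. The lowest unadjusted p at day 0 belonged to Cldn12 (difference 0.11, SE 0.07), Cldn34a, which was well above background on 0 of the arrays, and Cldn18 (-0.27, SE 0.21). At day 7 they were Cldn10 (0.72, SE 0.34), well above background on 4 of 4 and 1 of 4 arrays, and Cldn18 and Cldn13, which were not well above background on any array.

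The other membrane proteins of the junction had a median of 0.06 at day 0 (9 of 13 higher) and -0.01 at day 7 (6 of 13 higher). Those with the lowest p were the polarity protein gene Crb3 (0.22, SE 0.16), Igsf5 (0.13, SE 0.12) and Bves (-0.63, SE 0.62) at day 0. At day 7 they were Igsf5 (0.53, SE 0.29), Lsr, which encodes angulin-1 of tricellular junctions (-0.72, SE 0.41), and Clmp (-0.56, SE 0.38). Of the cytoplasmic proteins, 8 of 24 were higher at day 0 (median -0.03) and 11 of 24 at day 7 (median -0.04). Ybx3, the ZO-1 partner also known as ZONAB, was 0.11 higher at day 0 (SE 0.04, unadjusted p = 0.0129, adjusted p = 0.653, limma), with labels that did not overlap, as for 0.458% of all probes. Tiam1, a Rac activator, had -0.26 at day 0 (SE 0.11, unadjusted p = 0.0404, adjusted p = 0.822, limma) and -0.26 at day 7 (SE 0.12, unadjusted p = 0.0611, adjusted p = 0.913, limma). Patj had -0.14 at day 0 (SE 0.07), and at day 7 Pard3 had 0.29 (SE 0.17) and the cingulin gene Cgn 0.30 (SE 0.22).

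Regulators of the barrier had a median of 0.02 at both days, with 13 of 22 higher at day 0 and 12 of 22 at day 7. Those with the lowest p at day 0 were the vitamin D receptor gene Vdr (-0.21, SE 0.13), Hnf4a (0.13, SE 0.09) and Grhl2 (0.11, SE 0.07), the last 2 encoding epithelial transcription factors. At day 7 Grhl2 had -0.30 (SE 0.18) and Klf5 -0.47 (SE 0.29). Adherens junction and desmosome genes had medians of -0.03 and -0.06. Nectin1 had 0.16 at day 0 (SE 0.05, unadjusted p = 0.0120, adjusted p = 0.637, limma), followed by Nectin3 (-0.14, SE 0.09) and Ctnna1 (-0.08, SE 0.06). Afdn, which encodes the nectin-binding protein afadin, had 0.33 at day 7 with labels that did not overlap, as for 2.13% of all probes (SE 0.12, unadjusted p = 0.0301, adjusted p = 0.913, limma), followed by Nectin3 (-0.42, SE 0.23) and Nectin2 (0.21, SE 0.21).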

How the data were processed

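The authors labelled colon RNA with Cy3, hybridised it to single-color Agilent arrays (design 028005 at day 7, the one their methods name, and per the file headers 074809 at day 0) and extracted spots with Agilent Feature Extraction 10.7.3.1. In the deposited scanner tables the spot intensity is on a linear scale, before any normalization across arrays, and a p-value compares each spot with background. The authors' log2 table, quantile normalized per their methods, served as an alternative. Here log2 processed signals were quantile normalized per day, control and outlier spots left out, and probes with p under 0.05 on 60% or more of a label's arrays were tested with limma 3.58.1 (R 4.3.3) and Benjamini-Hochberg adjustment. The fits were checked on simulated arrays, in which each probe varied on its own, without a shared makeup of the tissue piece. That check does not show what the real arrays could detect. At day 7 Card9, with a difference of 4.37 (SE 1.24), did not pass (adjusted p = 0.913, limma). Genes were named through RefSeq records or the file's symbol. Named genes are all 10 members, Card9 and, of the 5 junction lists, the 3 with the lowest p per day, except 1 result that is not reported here, and marker genes needed to describe a list. Members and lists were chosen with earlier results of these data known. Correlations used Python 3.11.15 with scipy 1.17.1. Positions of probes are on mm9. No depth exists for arrays; their number limits the precision. The 8 arrays of day 7 and 13 of day 0 were fitted apart, without covariates; a joint fit gave the test between days. Alternatives changed the normalization, background, filter, probe, slide, scan session, replicate block and arrays.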

Additional observations from a re-analysis of the deposited data

Results flagged for a closer look

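In 44 groups of 4 to 7 arrays (10 genes and the pore-forming minus sealing score, in each label and day), 7 values stood apart from their group by Dixon's gap test, where chance flags about 1 in 20 groups. Cldn2 was highest in GF WT replicate 6 at day 0, at 12.40 on the log2 scale against 11.44 in the next array. Cldn8 was highest in GF Card9-/- replicate 5 at day 0, at 11.81 against 11.005. Cldn15 was lowest in GF WT replicate 2 at day 0, at 12.87 against 13.60, and the pore-forming minus sealing score was lowest in the same array, at -0.59 against 0.08. Cldn3 was highest in GF Card9-/- replicate 7 at day 0, at 16.02 against 15.86, lowest in GF Card9-/- replicate 6 at day 7, at 15.27 against 15.51, and highest in GF WT replicate 1 at day 7, at 15.78 against 15.40.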

How the results depend on the processing

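In every alternative run, including leaving out each array, 0 of the 10 genes at day 0, 0 of the 9 at day 7 and 0 of the 7 in the test between days passed (limma). The labels do not say whether the replicate numbers pair the samples. Correlations of same-numbered arrays (numbers 1 to 6) were 0.30, 0.29, 0.06, -0.01, 0.37 and -0.02 at day 0. They were 0.11 and 0.03 for the 2 numbers shared at day 7, 4 and 6. The GF WT array that best matched a GF Card9-/- array had the same number for 1 and 5 at day 0 and 4 at day 7. For the others it had another number, so these values do not settle a pairing. With a replicate block the pore-forming minus sealing difference was -1.33 at day 7 and -0.0382 at day 0. At day 7 it ran from -0.86 to -0.26 on leaving out each array, and at day 0 from -0.20 to -0.00529, while without the slide of GF WT replicate 6 the day 0 value changed sign (0.00804). Cldn8 at day 0 ran from 0.50 to 0.71 and Cldn2 at day 7 from -1.46 to -0.64, with -1.67 under the replicate block. The Cldn2 difference between days ran from -1.48 (without GF Card9-/- replicate 2.1) to -0.66, with -1.74 under the block. Single arrays also moved day 7 values over 1.5 times without a change of sign: Cldn8 was 0.10 without GF Card9-/- replicate 6, Cldn4 0.15 without replicate 2.1 and 0.55 without replicate 4 of that label, and without GF WT replicate 5 Cldn7 was 0.0979 and Cldn23 0.0971. Without GF WT replicate 6, Cldn23 was 0.53. Tjp1 was 0.00756 without GF Card9-/- replicate 4 and 0.0909 without replicate 2.1. At day 0, Ocln was 0.11 without GF WT replicate 4 and 0.30 without replicate 5. Small differences changed sign. At day 0, centring on epithelium markers gave -0.0595 for Cldn2, -0.0193 for Cldn3 and -0.0385 for Cldn7, the mean of a gene's probes 0.0317 for Tjp1, slide as a fixed block -0.0284 and scan session -0.00458 for Cldn2. At day 7, centring on epithelium markers gave -0.10 for Tjp1, and the mean of probes -0.0309 for Cldn7 and 0.0464 for Ocln. Slide as a fixed block gave 0.14 for Cldn3, -0.0328 for Cldn8, -0.40 for Cldn15 and 0.17 for Ocln, and as a random block 0.00626 for Cldn3. The replicate block gave 0.0257 for Cldn3, -0.17 for Cldn4, -0.78 for Cldn15 and -0.25 for Cldn23. Without GF Card9-/- replicates 2.1 and 6, Cldn3 was at 0.0629, Cldn23 at -0.0296 and Ocln at 0.0168, and without replicate 2.1 Cldn15 was at -0.0471. On leaving out each array, or the slide of GF WT replicate 6, at day 0 the ranges with a change of sign were Cldn1 from -0.61 to 0.00304, Cldn2 from -0.0289 to 0.19, Cldn3 from -0.00853 to 0.12, Cldn4 from -0.00421 to 0.42, Cldn7 from -0.0161 to 0.0877, Cldn23 from -0.0147 to 0.20, Tjp1 from -0.11 to 0.0188. On leaving out each array at day 7 they were Cldn3 from -0.0518 to 0.0968, Cldn15 from -0.26 to 0.47, Ocln from -0.17 to 0.0641. The cause was not tested. The score without Cldn1 and the alternatives for the other junction genes were chosen after seeing the data. Array number limits day 7, where the intervals of Cldn2 and Cldn15 are wider than 2 on the log2 scale, and signal over background limits Cldn1, which had no test there.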
